A study of Rattus norvegicus with 32 samples.

Results

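Nuclear-encoded subunits of the mitochondrial respiratory chain and ATP synthase were examined in the hippocampus of young adult rats. They were taken from the deposited gene counts by symbol: Ndufab1 and the other Nduf genes of the a, b, c, s and v series, Sdha to Sdhd, all Uqcr genes, the Cox4 to Cox8 families, and all Atp5 genes. This gave 89 of the 32883 genes of the tables, which carry 86 distinct symbols. By symbol, 40 belong to complex I, 4 to complex II, 9 to complex III, 20 to complex IV and 16 to complex V, the ATP synthase. Ndufa4 and Ndufa4l2 are counted under complex I by name, although Ndufa4 is known to be part of complex IV. Likewise by name, Cox7a2l, known from supercomplex assembly, and the pseudogene symbol Cox6c-ps1 are counted under complex IV. Atp5if1, an inhibitory factor, is counted under complex V. All are called subunits below.

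The 32 animals were Sprague-Dawley rats, a common outbred laboratory strain, each studied at 65 days of age by RNA sequencing of the whole hippocampus. Their mothers ate either a diet with 200 mg iron per kg throughout or one with 4 mg iron per kg from gestational day 2 to postnatal day 7, followed by the 200 mg diet. From gestational day 11 to day 18, part of the mothers on each iron diet received 5 g choline per kg in place of 1.1 g, so that the groups are always iron-sufficient (IS), iron-sufficient with choline (ISch), formerly iron-deficient (FID) and formerly iron-deficient with choline (FIDch). These diet details come from the study's methods, which state them for the males, and are taken to hold for the females because the labels give the same 4 groups. Each group had 4 males, sequenced as batch I, and 4 females, sequenced as batch II. Sex, sequencing batch and depth therefore cannot be told apart, and each diet comparison was made within 1 sex. Brain iron at the time of sampling is not among the deposited values.

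The respiratory chain passes electrons from NADH, through complex I, and from succinate, through complex II, to complex III, cytochrome c and complex IV, where oxygen is reduced. Complexes I, III and IV pump protons, and the ATP synthase uses the resulting gradient to make ATP, on which firing and synaptic transmission in the hippocampus depend heavily. The chain needs iron: complexes I, II and III hold iron-sulfur clusters and complexes II, III and IV hold heme. Most subunits are made from nuclear genes and imported, whereas a small set is encoded by mitochondrial DNA, so each complex other than complex II is assembled from the products of both genomes.

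Male libraries held 3515806 to 9517503 counts (median 8007907) and female libraries 18439999 to 26616318. A count of 0 allows up to 3 counts, which comes to 0.32 to 0.85 CPM (counts scaled to the library's total) in males and 0.11 to 0.16 CPM in females. This limit covers counting error only, since reads without molecular identifiers are not independent molecules. Values in CPM below were scaled with edgeR's TMM factors. Of the 89 subunit genes, 79 passed edgeR's filter on low counts in the 16 male libraries and 81 in the 16 female libraries, 78 of them in both, and 7 passed in neither. The 7 were Cox7a1, Cox7b2, Cox8b, Cox8c, Cox6c-ps1, Ndufa1 and Ndufa10l1. Cox4i2, Cox6a2 and Atp5pb passed in the females alone, and 1 entry of Ndufv3 in the males alone. These libraries differ in depth, so passing in 1 sex is no measure of a difference between the sexes.

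Markers of the labelled tissue were present in all 32 libraries. The excitatory neuron markers summed to 5103 to 5856 CPM in males and 5297 to 6394 CPM in females, with Slc17a7, the vesicular glutamate transporter, as the most abundant. Markers of hippocampal fields summed to 686 to 858 CPM in males and 690 to 1096 CPM in females, with Wfs1, a marker of field CA1, highest and at 250 to 655 CPM in females. Striatum markers stayed at 36.4 to 62.1 CPM. Ucp1, which marks brown fat, had no count, as did Otx2 among the choroid plexus markers. The choroid plexus list, in which Enpp2 was the most abundant gene on average, summed to 601 CPM in male FID replicate 4 and to 92.6 to 126 CPM in the other 31 libraries. In a whole tissue sample, fewer cells of a type and less RNA per cell cannot be told apart.

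Several subunits of complex IV exist in forms used by different tissues. The widely used forms Cox4i1, Cox6a1, Cox7b and Cox8a had medians of 299, 221, 84.3 and 197 CPM in males and 370, 280, 114 and 188 CPM in females. Their counterparts known from lung (Cox4i2), from heart and muscle (Cox6a2, Cox7a1, Cox8b) or from testis (Cox6b2, Cox7b2, Cox8c) were at or below 2.69 CPM in every library. Cox4i2 reached 1.48 CPM in males and 1.96 CPM in females, and Cox6b2 1.76 and 2.69 CPM. Cox7a2, the widely used form beside Cox7a1, has no entry; the related Cox7a2l, known from supercomplex assembly, had medians of 126 CPM in males and 153 CPM in females. Ndufa4 had 159 to 239 CPM and its relative Ndufa4l2, known to be induced by low oxygen, 0.732 to 3.12 CPM over all 32 libraries. Transcript lengths were not at hand, so subunit levels are not ranked between genes, and the markers named above as highest are so in CPM only.

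The subunits that carry iron-sulfur clusters were all well above the detection limit. Group means of Ndufs1, which holds several of the clusters of complex I, in males were 218 ± 11.5 CPM for IS, 220 ± 6.27 for ISch, 233 ± 16.6 for FID and 207 ± 7.92 for FIDch (SD, n = 4 each). In females they were 203 ± 6.26, 193 ± 8.59, 206 ± 8.14 and 205 ± 11.5 CPM in the same order (SD, n = 4 each). Over the 16 males the other carriers had medians of 53.5 CPM (Ndufs7), 39.7 (Ndufs8), 147 (Ndufv1), 102 (Ndufv2), 95.7 (Sdhb, of complex II) and 119 (Uqcrfs1, the Rieske protein of complex III). Over the 16 females these medians were 61, 55.8, 184, 108, 89.1 and 101 CPM. Sdhc and Sdhd, which anchor complex II in the membrane and bind its heme, had 114 to 148 and 68.7 to 101 CPM in males, and 114 to 134 and 106 to 135 CPM in females. None of these 9 genes had an adjusted p under 0.05 in any of the 13 comparisons (edgeR quasi-likelihood, Benjamini-Hochberg over all genes tested). At an unadjusted p under 0.05 there were 7 instances in 91 tests of the iron-sulfur carriers (7.69%) and 2 in 26 tests of Sdhc and Sdhd (7.69%), beside 12.7% of all genes with the 13 comparisons pooled. DESeq2 gave 7 and 1, beside 11.3% of all genes, and by adjusted p 2 (2.2%) and 0, beside 1.84%.

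The overall level of the subunits differed between libraries. For each library the median deviation of the subunits from their batch mean was taken on the log2 scale. In male IS it was 0.28, 0.00, -0.16 and 0.03 in replicates 1 to 4, which are the highest and the lowest value of the 16 males. In IS replicate 1, 77 of 79 subunits lay above the mean of its group, and in IS replicate 3 only 3 of 79 did. IS replicate 1 also had the largest share of counts from ribosomal protein genes among the males (0.736%, the other 15 between 0.515% and 0.638%), and the lowest sum of hippocampal field markers (686 CPM). Whether these are linked to its subunit level was not tested. The other male groups spanned -0.07 to 0.02 (ISch), -0.13 to 0.07 (FID) and -0.07 to 0.07 (FIDch). Among females FIDch replicate 4 was highest at 0.17, with 72 of 81 subunits above its group mean, and the other 15 lay between -0.07 and 0.06. The same library had the highest sums of blood (310 CPM) and striatum markers (54.7 CPM), the lowest sum of excitatory neuron markers (5297 CPM) and the largest share of counts from ribosomal protein genes (1.09%) among the females. It also stood apart over all genes: chi-square per gene between libraries of a group, which is near 1 under counting error alone, was 22.4 to 25.2 in its 3 pairs and 4.23 to 14.3 in the 21 other female pairs. The part of these in its subunit level was not tested. In males chi-square per gene was 6.25 to 11 in the 3 pairs with IS replicate 1 and 2.02 to 7.97 in the 21 other pairs. All subunits together took 0.806% to 1.07% of the counts of a male library and 0.934% to 1.11% of a female library. Group means of the level ran from -0.05 to 0.05, within the spread of the libraries.

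**Figure D1:**
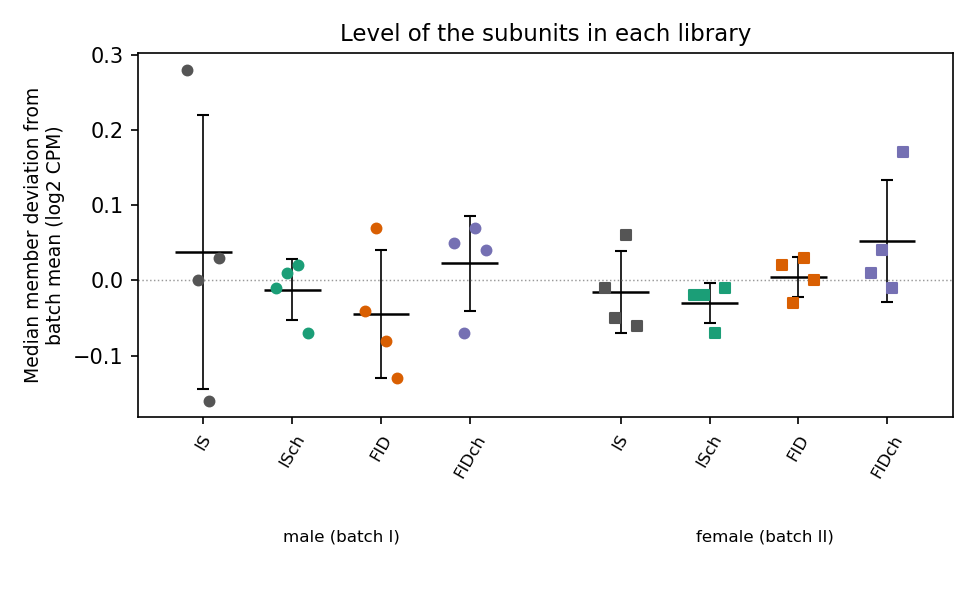
Median deviation of the subunits from their batch mean (log2 CPM, vertical axis) in each of the 32 libraries, by diet group and sex; points are libraries, bars the group mean and whiskers the SD. Male IS replicate 1 at 0.28 and replicate 3 at -0.16 span the male range, and female FIDch replicate 4 at 0.17 is the highest female.

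Against IS, the FID males address what early iron deficiency leaves behind in adulthood. No subunit was called: 3 of 77 tested met the study's criterion, a log2 change over 0.2 in size with an unadjusted p under 0.05, and all 3 were lower in FID. Over all 13851 genes tested, 2.28% were lower and 2.34% higher by this criterion. None reached a Benjamini-Hochberg adjusted p under 0.05 by edgeR's quasi-likelihood test, among the subunits or among all genes (0%). An unadjusted p under 0.05 was found for 4 subunits, beside 5.68% of all genes, and by DESeq2 3 subunits had an unadjusted and 0 an adjusted p under 0.05, beside 4.02% and 0.0144% of all genes. The median log2 change of the subunits was -0.10, with 12 of 77 above 0, while that of all genes was -0.01. By complex it was -0.10 (I), -0.02 (II), -0.14 (III), -0.12 (IV) and -0.10 (V).

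The 3 subunits were Cox6a1 of complex IV and the accessory complex I subunits Ndufb8 and Ndufb7. Cox6a1 had 277, 225, 199 and 243 CPM in the IS rats and 198, 214, 200 and 189 CPM in FID. IS replicate 1 was high and IS replicate 3 lay among the FID values, so the groups overlapped. Its log2 change was -0.24 (SE 0.091), Ndufb8's was -0.24 (SE 0.099) and Ndufb7's -0.23 (SE 0.11), each with an adjusted p of 0.786 by edgeR (Benjamini-Hochberg). Of the 77, 1 subunit had groups that did not overlap, beside 3.52% of all genes: Ndufa5, an accessory subunit of complex I, with 57.8 to 65.9 CPM in IS and 66 to 76.6 in FID, a log2 change of 0.18 that stays under the criterion. Without IS replicate 1 the log2 changes of Cox6a1, Ndufb8 and Ndufb7 were -0.15, -0.18 and -0.12 and none met the criterion. How many subunits met it rested on single libraries, with 19 without IS replicate 3, 8 without FID replicate 2, and 0 without IS replicate 1 or FID replicate 4. The shares of all genes given above are from the fit with all libraries. The median log2 change moved to -0.16 and -0.01 when IS replicates 3 and 1 were left out in turn. FID replicate 4, the library with 601 CPM of choroid plexus markers, also had the lowest subunit level of the FID males (-0.13), and whether these are linked was not tested.

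Choline given to sufficient animals, ISch against IS, gave 1 subunit called in males. Cox6b1, a small subunit of complex IV on the side facing the intermembrane space, has 2 entries in the tables. Its entry ENSRNOG00000034161 had 33.9, 29.5, 27.6 and 31 CPM in the IS males and 44, 44.8, 46.1 and 40.8 CPM in ISch. All ISch values lay above all IS values. The log2 change was 0.52 (SE 0.083, edgeR quasi-likelihood with Benjamini-Hochberg adjusted p = 0.0199), and an exact permutation test over the 8 rats gave p = 0.029, the smallest that 4 against 4 allows. The other entry, ENSRNOG00000024309, had 101, 87.3, 69.1 and 90 CPM in IS and 78.6, 86.9, 86.9 and 76.7 CPM in ISch, with full overlap. With the counts of both entries added together, which was tried only after seeing the data, the symbol's log2 change was 0.10 and the call ended (edgeR, Benjamini-Hochberg adjusted p = 0.70; the alternatives spanned 0.000298 to 0.70). The adjusted p of the first entry also passed 0.05 with IS replicate 2 (0.10) or 4 (0.0746) left out, or ISch replicate 1 (0.084), 2 (0.0879), 3 (0.0769) or 4 (0.0515), and with ISch replicates 1 and 2 both left out (0.371), by the same edgeR test with Benjamini-Hochberg adjustment. Its log2 change stayed between 0.48 and 0.58 in the fits that left out 1 library.

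In all, 1 of the 78 subunits tested was higher and 4 were lower in male ISch by the criterion, against 4.52% and 3.54% of 13956 genes. By adjusted p, 1 subunit was called beside 0.208% of all genes. The 4 lower ones were Ndufb8, Uqcrq, Uqcrb (ENSRNOG00000024967) and Ndufc1, none with an adjusted p under 0.05 (edgeR, Benjamini-Hochberg; 0.389 to 0.467). Ndufb8, an accessory subunit of complex I, had 148, 144, 110 and 130 CPM in IS and 108, 109, 118 and 115 in ISch, which overlap through IS replicate 3. Uqcrq, the ubiquinone-binding subunit of complex III, had 54.3, 43.6, 34.4 and 41.8 CPM in IS and 36.5, 34, 34.1 and 38.5 in ISch, again overlapping at IS replicate 3. Their log2 changes were -0.24 (SE 0.084) and -0.29 (SE 0.12), and without IS replicate 1 they were -0.19 and -0.16, under the criterion. The count at the criterion was 13 without IS replicate 3, 2 without ISch replicate 2 and 1 without ISch replicates 1 and 2. In 3 of the 78 the groups did not overlap, beside 6.15% of all genes. The median of the subunits was -0.07, with 24 of 78 above 0, beside 0.00 for all genes, and it was 0.01 without IS replicate 1 and -0.12 without IS replicate 3. By complex it was -0.07 (I), -0.05 (II), -0.12 (III), -0.07 (IV) and 0.00 (V).

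**Figure D2:**
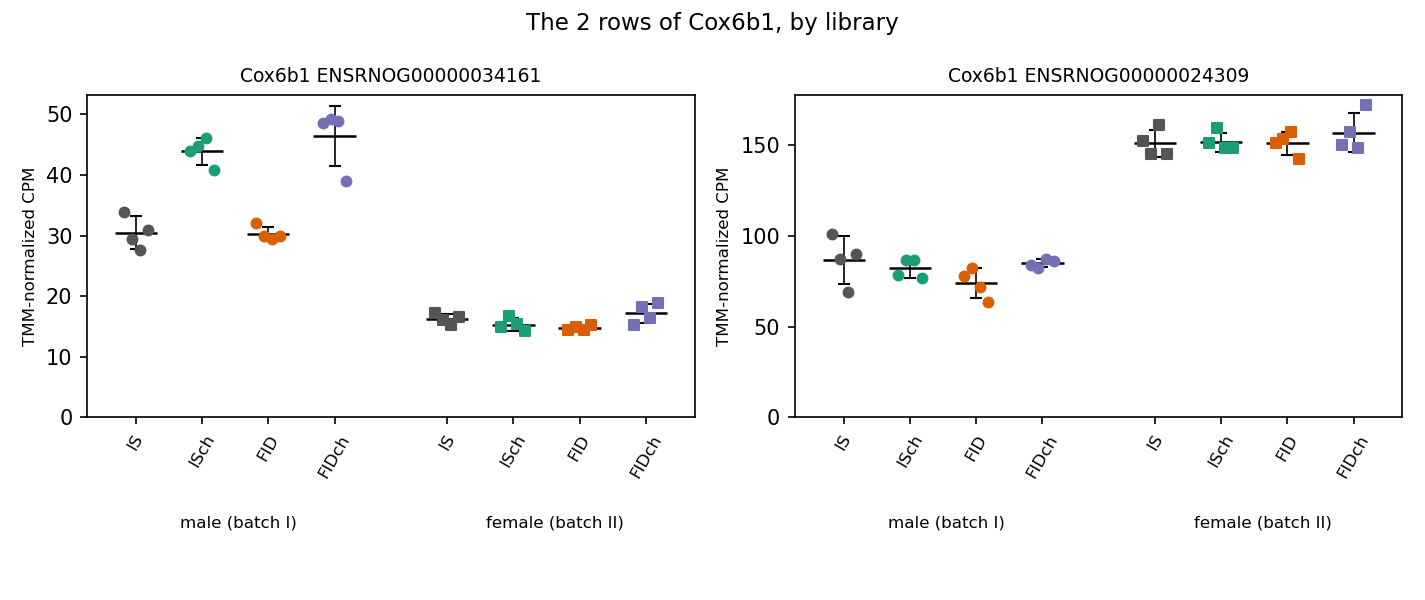
Level of the 2 entries of Cox6b1 (TMM-normalized CPM, vertical axes from 0) in each library by diet group and sex, with group mean and SD (n = 4). Entry ENSRNOG00000034161 is at 27.6 to 33.9 CPM in male IS and 39 to 49.2 CPM in male FIDch, while the other entry is at 69.1 to 101 and 82.2 to 87.4 CPM in the same groups.

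In the FIDch males against IS, rats that had both early iron deficiency and choline, the same entry of Cox6b1 was the 1 subunit called. Its values in FIDch were 48.5, 49.2, 48.9 and 39 CPM, against the 27.6 to 33.9 CPM of IS. Replicate 4 was the lowest of the FIDch rats and still above all IS rats. The log2 change was 0.60 (SE 0.10, edgeR with Benjamini-Hochberg adjusted p = 0.0379; exact permutation p = 0.029, n = 4 each). With both entries added together it was 0.16 (edgeR, Benjamini-Hochberg adjusted p = 0.692, the highest of a range that begins at 0.000552). Without IS replicate 2, 3 or 4 or FIDch replicate 1, 2 or 3, the adjusted p was 0.168, 0.0789, 0.0907, 0.182, 0.0678 and 0.139 in that order by edgeR with Benjamini-Hochberg adjustment, while the log2 change stayed between 0.55 and 0.68.

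Of 77 subunits tested in male FIDch against IS, 3 were higher (Cox6b1, Ndufa4l2 and Atp5me) and 3 lower (Uqcrc2, Uqcrb and Ndufc1) by the criterion, beside 2.91% and 3.21% of 13693 genes. By adjusted p the share of all genes was 0.131%. Ndufa4l2, at the low level given earlier, had groups that overlapped. Its log2 change was 0.79 (SE 0.28, edgeR with Benjamini-Hochberg adjusted p = 0.476). Uqcrc2, a core protein of complex III, had 387, 373, 315 and 332 CPM in IS and 295, 296, 310 and 300 in FIDch, without overlap. Uqcrb (ENSRNOG00000024967), which binds ubiquinone in complex III, had 52.4, 42.8, 40.1 and 40.3 CPM in IS and 33.2, 35, 34.3 and 39.8 in FIDch, a narrow gap between FIDch replicate 4 and IS replicate 3. Their log2 changes were -0.23 (SE 0.07) and -0.31 (SE 0.10), with adjusted p of 0.407 and 0.468 by edgeR (Benjamini-Hochberg). Uqcrc2 left the criterion without IS replicate 1, at a log2 change of -0.18. With both its entries added together Uqcrb had a log2 change of -0.17 and left the criterion (edgeR, Benjamini-Hochberg adjusted p = 0.706, in a range of 0.217 to 0.832). The number at the criterion was 11 when either IS replicate 1 or IS replicate 3 was left out. Groups without overlap were found for 3 of the 77, beside 5.32% of all genes. The median was -0.04 for the subunits and 0.01 for all genes, and it was 0.05 without IS replicate 1, -0.11 without IS replicate 3 and -0.01 without FIDch replicate 2.

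The comparison of FIDch with FID males, which asks what choline changed in formerly deficient rats, had more subunits at the criterion than any of the other 7 comparisons of diet groups. Of 78 tested, 14 were higher and 1 was lower in FIDch by the criterion, against 5.74% and 7.24% of 13945 genes. With an adjusted p under 0.05 (edgeR quasi-likelihood, Benjamini-Hochberg) there were 3, beside 1.28% of all genes: Cox6b1 (ENSRNOG00000034161), Atp5me and Atp5f1e. All 3 were higher in FIDch. DESeq2 called more, with 7 subunits beside 2.01% of all genes. Cox6b1 had 32, 29.9, 29.4 and 30 CPM in FID, and the FIDch values given above are all higher. The log2 change was 0.60 (SE 0.086, edgeR with Benjamini-Hochberg adjusted p = 0.00787). With both entries added together the change was 0.32 and the symbol was still called (edgeR, Benjamini-Hochberg adjusted p = 0.0376, in a range over the alternatives of 1.21e-05 to 0.0766).

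Atp5me, the small e subunit in the membrane part of the ATP synthase, had 48.5, 52, 45.5 and 45.9 CPM in FID and 70.8, 64.7, 62.9 and 69 in FIDch. The lowest FIDch rat was above the highest FID rat. Its log2 change was 0.47 (SE 0.071, edgeR with Benjamini-Hochberg adjusted p = 0.0106; exact permutation p = 0.029, n = 4 each). The adjusted p was 0.0594 without FIDch replicate 1 and 0.0556 without FIDch replicate 4, in a range of 5.45e-05 to 0.0813 by edgeR or DESeq2 with Benjamini-Hochberg adjustment. IS males had 70.3, 49, 45.6 and 56 CPM and ISch males 65.1, 61.4, 63.2 and 53.9 CPM, so the IS rats overlapped both the FID and the FIDch rats. Atp5f1e, the epsilon subunit of the rotating stalk, had 57.1, 67.3, 54.8 and 54.1 CPM in FID and 72.1, 79.4, 79.7 and 71.5 in FIDch. FID replicate 2 was the highest of its group and the groups did not overlap. Its log2 change was 0.36 (SE 0.08, edgeR with Benjamini-Hochberg adjusted p = 0.0473). This p stayed under 0.05 without FID replicate 2 (0.0116) and passed it without any 1 of the other 7 libraries and with the 4 male groups in 1 fit (0.0938), in a range over all alternatives of 0.00881 to 0.145 by edgeR or DESeq2 with Benjamini-Hochberg adjustment.

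Below are the promoters of Atp5me, Atp5f1e and Ndufa12, shown because these are the called subunits whose symbol has 1 entry. RefSeq's windows of 300 bases around the annotated gene start on assembly GRCr8, a newer one than the Rnor_6.0 of the counts, were searched on both strands for letters bound by factors known to act on respiratory genes. These were GCATGCGC (nuclear respiratory factor 1), CCGGAAG (ETS family, to which nuclear respiratory factor 2 belongs), AAGATGGC (YY1) and GGGCGG (SP1). Capitals mark the matches, read in either direction. The window of Atp5me is chr14:1464610-1464909 on the plus strand, that of Atp5f1e chr3:183680123-183680422 on the minus strand, and that of Ndufa12 chr7:30658066-30658365 on the plus strand, each given 5′ to 3′ along its gene and reaching into the first bases of the transcript.
Atp5me: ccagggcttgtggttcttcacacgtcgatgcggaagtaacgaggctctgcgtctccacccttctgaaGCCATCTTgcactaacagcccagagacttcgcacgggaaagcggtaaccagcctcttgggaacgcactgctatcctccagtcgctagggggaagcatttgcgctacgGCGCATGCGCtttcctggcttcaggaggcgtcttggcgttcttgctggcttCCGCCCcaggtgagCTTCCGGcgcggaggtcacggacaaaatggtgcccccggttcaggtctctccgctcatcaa
Atp5f1e: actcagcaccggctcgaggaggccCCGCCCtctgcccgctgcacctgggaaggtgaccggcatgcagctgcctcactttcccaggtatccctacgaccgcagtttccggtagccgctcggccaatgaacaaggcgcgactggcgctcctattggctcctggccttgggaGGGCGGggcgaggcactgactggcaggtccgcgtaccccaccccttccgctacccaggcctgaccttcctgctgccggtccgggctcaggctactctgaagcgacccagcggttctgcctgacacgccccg
Ndufa12: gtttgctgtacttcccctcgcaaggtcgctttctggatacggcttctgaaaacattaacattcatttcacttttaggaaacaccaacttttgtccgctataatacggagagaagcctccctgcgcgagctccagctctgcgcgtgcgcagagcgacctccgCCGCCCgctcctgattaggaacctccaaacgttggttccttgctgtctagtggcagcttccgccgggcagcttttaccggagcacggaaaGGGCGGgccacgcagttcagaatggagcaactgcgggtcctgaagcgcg
Atp5me holds YY1, nuclear respiratory factor 1, SP1 and ETS letters, the second of these as overlapping matches on both strands. Atp5f1e and Ndufa12 hold 2 SP1 matches each and none of the others. The window of Cox6b1 is not printed because it cannot be tied to either entry.

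Of the 86 symbols, 74 matched a RefSeq promoter window. The nuclear respiratory factor 1 letters were in 9 of these 74 (12.2%), beside 2.47% of all 33469 windows of the same length. The ETS letters were in 19 (25.7%, all windows 8.75%), the YY1 letters in 16 (21.6%, all windows 3.17%) and the SP1 letters in 31 (41.9%, all windows 33.1%). The median share of G and C was 55.8% in the subunits' windows and 51.7% in all. A match gives the letters only, and binding was not measured.

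The other 12 subunits that met the criterion in FIDch against FID males lay in complexes I, III and IV. Complex I, with 38 of the 78 tested, had 8 of the 15 at the criterion (Ndufs7, Ndufa8, Ndufa13, Ndufa2, Ndufb6, Ndufa12, Ndufb11 and 1 entry of Ndufv3). Complex III, with 9 tested, had 3 (Uqcr11 and Uqcrb entry ENSRNOG00000032204 higher, Uqcrc2 lower). Complex IV, with 12 tested, had Cox7c beside Cox6b1, and complex II, with 4 tested, had none. In complex V, with 15 tested, only the called Atp5me and Atp5f1e met it. The other entry of Uqcrb was at -0.13, and with both added together the symbol was at -0.01, outside the criterion (edgeR, Benjamini-Hochberg adjusted p = 0.961). With all repeated entries added together 13 subunits met the criterion. Ndufs7, which carries the last iron-sulfur cluster before ubiquinone in complex I, had 49.6, 53.7, 49.2 and 49.1 CPM in FID and 67.2, 59.9, 61.1 and 59 in FIDch. The groups did not overlap, and the log2 change was 0.29 (SE 0.068, edgeR with Benjamini-Hochberg adjusted p = 0.0604). Ndufa8, an accessory subunit, had 91.3, 90.5, 91.1 and 86.4 CPM in FID and 112, 98.6, 112 and 105 in FIDch, again apart, at 0.25 (SE 0.059, edgeR with Benjamini-Hochberg adjusted p = 0.0604). Uqcrc2 had 330, 398, 340 and 350 CPM in FID, all above the 295 to 310 CPM of FIDch, at -0.25 (SE 0.062, edgeR with Benjamini-Hochberg adjusted p = 0.0755). The remaining 9 had log2 changes of 0.20 to 0.47 and adjusted p of 0.0995 to 0.248 by edgeR (Benjamini-Hochberg). In 12 of the 78 subunits the FIDch and FID values did not overlap, beside 10.8% of all genes. The median was 0.07, with 53 of 78 above 0, beside 0.00 for all genes, and 0.04 without FID replicate 3 or without FIDch replicate 3. By complex it was 0.06 (I), -0.05 (II), -0.05 (III), 0.13 (IV) and 0.11 (V). Leaving out 1 library gave 13 to 17 subunits at the criterion, with 13 higher and 1 lower without FID replicate 4, the library with high choroid plexus markers, but 1 by adjusted p without FIDch replicate 1 or without FIDch replicate 4.

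**Figure D3:**
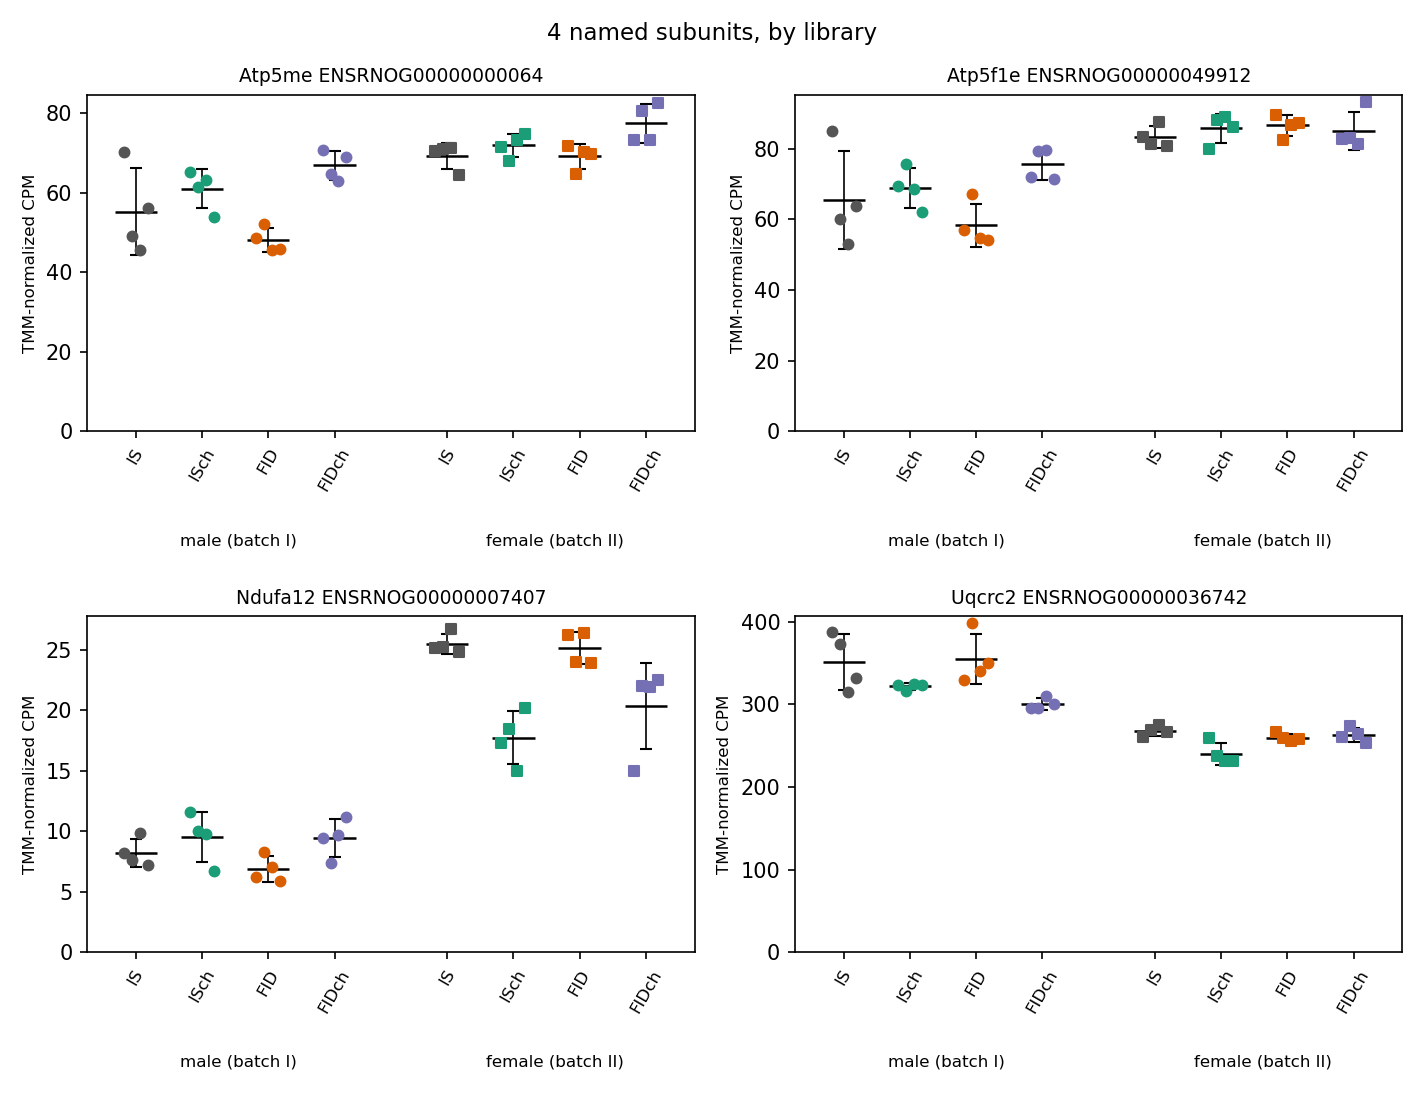
Level of Atp5me, Atp5f1e, Ndufa12 and Uqcrc2 (TMM-normalized CPM, vertical axes from 0) in each library by diet group and sex, with group mean and SD (n = 4). In males, Atp5me and Atp5f1e are higher and Uqcrc2 lower in every FIDch rat than in every FID rat; in females, Ndufa12 is at 24.8 to 26.7 CPM in IS and 15 to 20.2 CPM in ISch.

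The iron by choline interaction in males, the change by choline in formerly deficient rats less that in sufficient rats, had 0 of 79 subunits with an adjusted p under 0.05 by edgeR (Benjamini-Hochberg), and 0.00699% of 14314 genes. An unadjusted p under 0.05 was found for 13 subunits, beside 15.4% of all genes, and DESeq2 gave 12 and, by adjusted p, 1, beside 13.5% and 0.915% of all genes. The smallest adjusted p was 0.145 for Ndufs7, whose interaction was 0.44 (SE 0.11, edgeR with Benjamini-Hochberg). The median interaction of the subunits was 0.15, with 66 of 79 above 0, and 0.01 for all genes. It was 0.04 without IS replicate 1, the male with the highest subunit level.

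In females FID and IS did not differ in any subunit by the criterion: 0 of 79 met it in either direction, beside 3.08% of 14632 genes that were higher and 3.4% that were lower. By edgeR's adjusted p (Benjamini-Hochberg) 0 subunits and 0.191% of genes were called, and by DESeq2 0 subunits and 1.32% of genes. An unadjusted p under 0.05 was found for 2 subunits by edgeR, beside 11.2% of all genes, and for 2 by DESeq2, beside 9.77%. The 2 by edgeR were Ndufb6 at 0.15 (SE 0.064) and Ndufs7 at 0.12 (SE 0.05), both on the log2 scale and both of complex I. In 1 subunit the groups did not overlap, beside 6.49% of all genes. The median was 0.01, with 47 of 79 above 0, and 0.00 for all genes, and it lay between 0.00 and 0.04 when 1 library was left out. Without IS replicate 1 a single subunit met the criterion.

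In ISch against IS females 1 subunit was called and it was lower. Ndufa12, an accessory subunit at the peripheral arm of complex I, had 25.1, 25.2, 26.7 and 24.8 CPM in IS and 17.3, 18.4, 15 and 20.2 in ISch. Every ISch rat was below every IS rat, and the FID females, at 26.2, 24, 26.4 and 23.9 CPM, were close to IS. The log2 change was -0.52 (SE 0.087, edgeR quasi-likelihood with Benjamini-Hochberg adjusted p = 0.0159; exact permutation p = 0.029, n = 4 each). The adjusted p was 0.0506 without IS replicate 2, in a range over the alternatives of 1.83e-05 to 0.0724 by edgeR or DESeq2 with Benjamini-Hochberg adjustment. By the criterion, 0 of 79 subunits were higher and 1 lower, beside 5.14% and 5.15% of 14466 genes, and by adjusted p 1, beside 2.54%. Without ISch replicate 1 there were 3 by the criterion and 3 by adjusted p, and 2 by the criterion without ISch replicate 3. Of the 79, 4 did not overlap between the groups, beside 10.1% of all genes. Among the 4 was Uqcrc2, with 260 to 275 CPM in IS and 231 to 259 in ISch, a log2 change of -0.16 (SE 0.046, edgeR with Benjamini-Hochberg adjusted p = 0.105). The median of the subunits was -0.02, or 0.01 without IS replicate 3, and that of all genes 0.00. In males Ndufa12 was at 5.88 to 11.6 CPM in all 16 libraries, and its log2 change in ISch against IS was 0.20 (SE 0.18). It was 0.22 (SE 0.16) in male FIDch against IS and 0.47 (SE 0.16) against FID, where it met the criterion. These male changes thus had the opposite sign.

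In FIDch against IS females, 1 of 79 subunits was higher (Atp5mg, the g subunit of the ATP synthase) and 1 lower (Ndufa12) by the criterion, beside 4.16% and 4.82% of 14662 genes. None had an adjusted p under 0.05 by edgeR (Benjamini-Hochberg; 0.907% of all genes), with 10 at an unadjusted p under 0.05, beside 12.9% of all genes, and DESeq2 gave 9 and 0, beside 12.4% and 2.67%. Atp5mg had 131, 130, 128 and 135 CPM in IS and 144, 165, 135 and 186 in FIDch, where replicate 4 was highest. IS replicate 4 and FIDch replicate 3 nearly met, and the log2 change was 0.26 (SE 0.087, edgeR with Benjamini-Hochberg adjusted p = 0.231). Ndufa12 had 15, 22, 21.9 and 22.5 CPM in FIDch, all below IS, with replicate 1 far under the rest. Its log2 change was -0.32 (SE 0.12, edgeR with Benjamini-Hochberg adjusted p = 0.263), and it fell to -0.20 without that replicate. The count at the criterion was 5 without FIDch replicate 1, 4 when IS replicate 3 was left out and 1 without FIDch replicate 4, where Atp5mg fell to 0.17. In 7 of the 79 subunits the groups did not overlap, beside 7.8% of all genes. The median was 0.05, with 69 of 79 above 0, beside 0.00 for all genes, and it was 0.02 and 48 of 79 without FIDch replicate 4. Without IS replicate 3 it was 0.09 and without FIDch replicate 3 0.08.

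In FIDch against FID females the criterion was met by 2 higher subunits, Atp5mg and Cox6b1 (ENSRNOG00000034161), and 1 lower, Ndufa12, of 79 tested, beside 5.59% and 7.07% of 14680 genes. By edgeR's adjusted p (Benjamini-Hochberg) 0 subunits were called, beside 2.28% of all genes. At an unadjusted p under 0.05 there were 10, beside 18% of all genes, and DESeq2 gave 10 and, by adjusted p, 1, beside 17.5% and 5.56% of all genes. Atp5mg had 136, 128, 115 and 138 CPM in FID, overlapping FIDch through its replicate 3, and a log2 change of 0.28 (SE 0.097, edgeR with Benjamini-Hochberg adjusted p = 0.16). Cox6b1 had 14.5, 14.9, 14.4 and 15.3 CPM in FID and 15.3, 18.2, 16.4 and 18.8 in FIDch, groups that meet at 15.3 without overlapping, with a log2 change of 0.21 (SE 0.082, edgeR with Benjamini-Hochberg adjusted p = 0.206). With both entries added together it was 0.07. Ndufa12 was at -0.31 (SE 0.12, edgeR with Benjamini-Hochberg adjusted p = 0.195) and without overlap. Without FIDch replicate 4 the criterion count was 1, with Atp5mg at 0.19 and Cox6b1 at 0.17. Ndufa12 was at -0.28 without FID replicate 1 or 3 and at -0.19 without FIDch replicate 1, each time outside the criterion, and so was Cox6b1 at 0.20 without FID replicate 1 and 0.18 without FIDch replicate 2. The smallest adjusted p was that of Cox7a2l, a factor of supercomplex assembly, at 0.0886 by edgeR (Benjamini-Hochberg), with 146 to 152 CPM in FID and 163 to 175 CPM in FIDch and a log2 change of 0.16 (SE 0.043). In 9 of the 79 subunits the groups did not overlap, beside 11.9% of all genes. The median was 0.04, with 55 of 79 above 0, beside 0.00 for all genes, and it was 0.01 without FIDch replicate 4 and 0.07 without FIDch replicate 3.

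The female interaction gave 0 of 81 subunits with an adjusted p under 0.05 by edgeR (Benjamini-Hochberg), beside 0.00668% of 14975 genes. There were 9 at an unadjusted p under 0.05, beside 9.18% of all genes, and DESeq2 gave 7 and 0, beside 8.87% and 0.394%. The median was 0.07, with 61 of 81 above 0, and 0.00 for all genes. It fell to 0.03 without FIDch replicate 4 and to 0.04 without IS replicate 3.

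**Figure D4:**
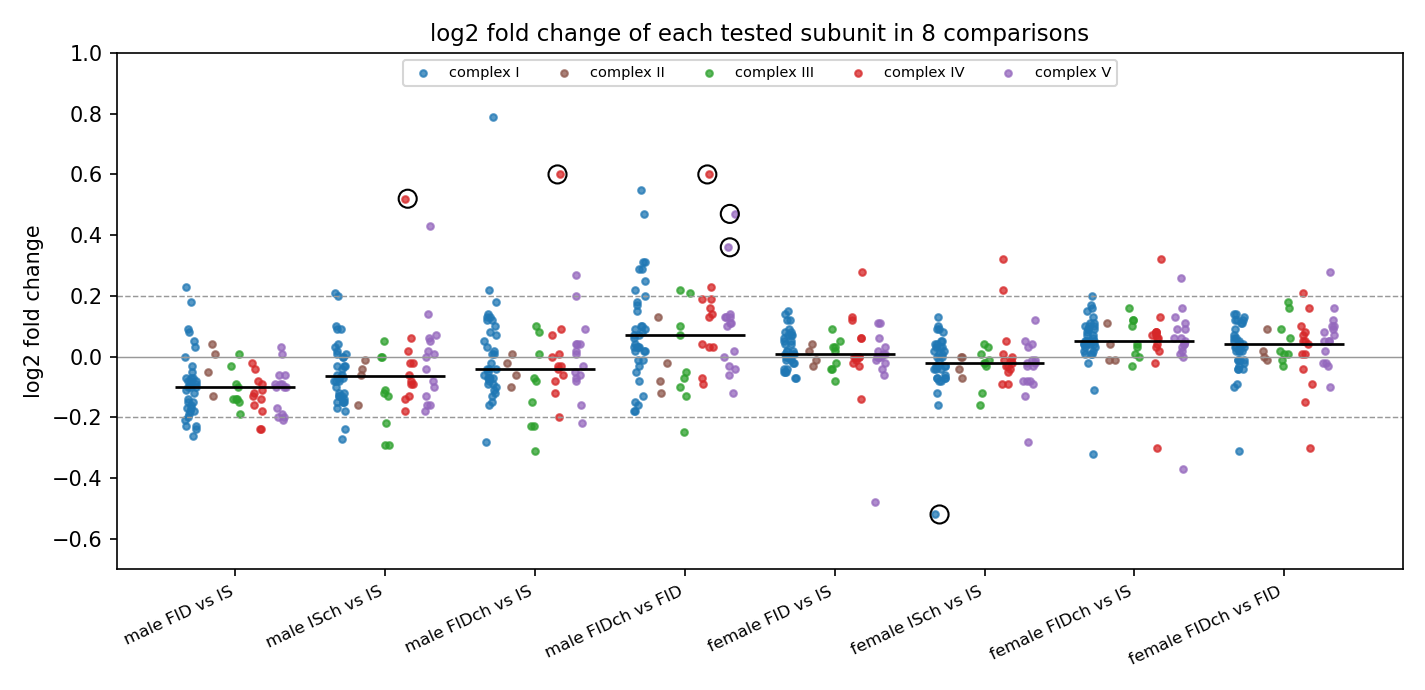
log2 fold change (vertical axis) of every tested subunit in the 8 comparisons of diet groups, coloured by complex; black lines are medians, dashed lines mark 0.2 in either direction, and circles mark an adjusted p under 0.05 (edgeR, Benjamini-Hochberg). The male medians run from -0.10 to 0.07 and the female medians from -0.02 to 0.05, with 5 circles in males and 1 in females.

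Whether an effect differed between the male and the female batch was tested in a fit of all 32 libraries, as the female change less the male change. For FID against IS 0 of 81 subunits had an adjusted p under 0.05 (edgeR, Benjamini-Hochberg; 0.0258% of 15520 genes), with 9 at an unadjusted p under 0.05, beside 8.61% of all genes, and DESeq2 gave 10 and 0, beside 8.12% and 0.11%. For ISch against IS the difference was called in 1 subunit, beside 1.31% of genes. This was Cox6b1 (ENSRNOG00000034161), at -0.61 (SE 0.11, edgeR with Benjamini-Hochberg adjusted p = 0.00295). For FIDch against IS the same entry was the 1 called, again beside 1.31% of genes, at -0.52 (SE 0.11, edgeR with Benjamini-Hochberg adjusted p = 0.0146). It was 0.0837 with the 16 libraries of those groups alone, in a range of 0.00329 to 0.695 (edgeR or DESeq2, Benjamini-Hochberg). With both entries added together the differences were -0.11 and -0.09, with edgeR adjusted p (Benjamini-Hochberg) of 0.636 and 0.695, the highest of each range. Leaving out 1 library gave 1 to 3 called subunits for ISch, with 3 without male IS replicate 3 and 2 without male ISch replicate 4 or female FIDch replicate 1. For FIDch it gave 1 to 4, with 4 without male IS replicate 3, and 2 without male IS replicate 4, male FID replicate 2, male FIDch replicate 4, female IS replicate 3 or female FID replicate 1. The median difference of the subunits was 0.09 for FID, 0.05 for ISch and 0.09 for FIDch, and between -0.02 and 0.00 for all genes. Without male IS replicate 1 the 3 medians were 0.03, -0.03 and -0.01, and without male IS replicate 3 they were 0.16, 0.11 and 0.16. The median for FIDch was 0.05 without female FIDch replicate 4.

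The sign of a subunit's change was compared between the sexes, whose comparisons share no rats. Of 76 subunits tested in both, 32 had the same sign for FID against IS (42.1%), 42 for ISch against IS (55.3%), 33 for FIDch against IS (43.4%) and 38 for FIDch against FID (50%). Over all genes these shares were 49.8%, 45.5%, 42% and 48.8%.

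Cox6b1, Uqcrb and Ndufv3 each have 2 entries under 1 symbol, and RefSeq lists for each a protein-coding gene and at least 1 pseudogene of like name. The tables do not say which entry is which, and reads that fit both could be counted under either. Of the counts of Cox6b1, entry ENSRNOG00000034161 held 26.1% ± 1.6 in IS males, 34.8% ± 0.78 with choline (ISch), 29.2% ± 2.2 in FID males and 35.3% ± 2.8 with choline (FIDch) (SD, n = 4 each). In females it held 9.77% ± 0.77, 9.18% ± 0.32, 8.94% ± 0.54 and 9.86% ± 0.45 in the same order (SD, n = 4 each). The share was thus higher in every ISch male (34 to 35.9%) than in every IS male (25.1 to 28.5%), and lower in all females than in all males. The summed level was 117 ± 15.9 CPM in IS males, 126 ± 7.4 with choline, 104 ± 8.59 in FID males and 131 ± 4.56 with choline (SD, n = 4 each).

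For Uqcrb, entry ENSRNOG00000032204 held 32.6% ± 3.9 in IS males, 37.1% ± 2.1 with choline, 33.6% ± 2.7 in FID males and 38.9% ± 1.5 with choline (SD, n = 4 each). In females it held 47.3 to 51% in all 16 libraries. Both symbols thus had higher mean shares in the choline groups of the males, with overlap between IS and ISch for Uqcrb and between FID (26.7 to 32.1%) and FIDch (31.2 to 37.4%) for Cox6b1. For Ndufv3, an accessory subunit of complex I, entry ENSRNOG00000027593 held 1.24 to 4.84% in males and 0 to 0.612% in females, and the other entry held the rest. That minor entry was at 0.565 to 1.88 CPM in males and at 0 to 0.301 CPM in females.

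**Figure D5:**
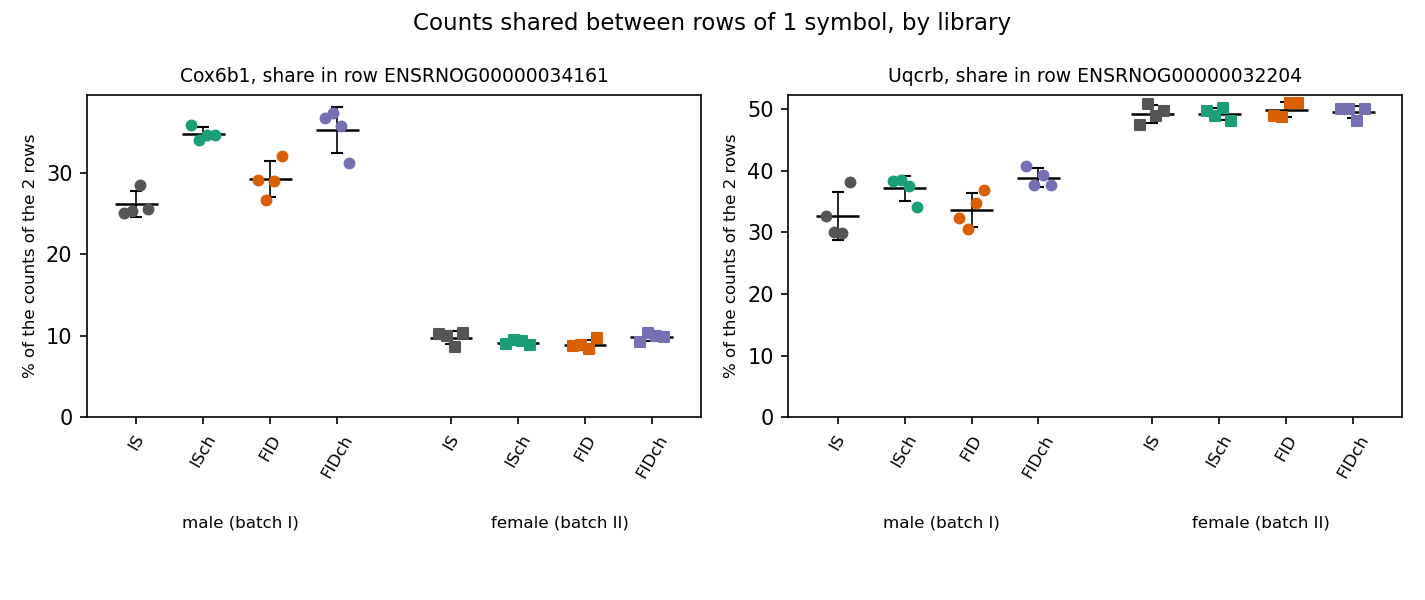
Share (percent, vertical axes from 0) of a symbol's counts that lies in 1 of its 2 entries, for Cox6b1 (left) and Uqcrb (right), in each library by diet group and sex, with group mean and SD (n = 4). The Cox6b1 share is 34 to 35.9% in male ISch and 25.1 to 28.5% in male IS, and 8.41 to 10.3% in the female libraries.

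Genes that work with these subunits were read from the same fits. The 13 subunits encoded by mitochondrial DNA had 2 higher and 9 lower by the criterion in male ISch against IS, beside 4.52% and 3.54% of all genes. Of these, 5 had an adjusted p under 0.05 (edgeR, Benjamini-Hochberg), beside 0.208% of all genes: Mt-nd2 at -0.68, Mt-nd1 at -0.56, Mt-co3 at -0.47 and Mt-atp6 at -0.32 on the log2 scale, and Mt-atp8 at 0.40. Mt-atp8, the small membrane subunit of the ATP synthase, was also called in male FIDch against IS at 0.47 (SE 0.069, edgeR with Benjamini-Hochberg adjusted p = 0.0197) and against FID at 0.54 (SE 0.063, edgeR with Benjamini-Hochberg adjusted p = 0.00541). Mt-nd3 of complex I was also called in FIDch against FID, at -0.34 (SE 0.074, edgeR with Benjamini-Hochberg adjusted p = 0.047). The group means of Mt-atp8 were 526 ± 32 CPM in IS males, 694 ± 35.6 with choline, 497 ± 24.2 in FID males and 725 ± 56.6 with choline (SD, n = 4 each). The median of the 13 was -0.26 in male ISch, -0.21 in male FIDch against IS and -0.09 in male FIDch against FID. In females 1 of the 13 was called, Mt-nd4l of complex I at -0.36 in FIDch against FID (SE 0.072, edgeR with Benjamini-Hochberg adjusted p = 0.0289), beside 2.28% of all genes. The difference between batches was called for Mt-nd1 (0.48), Mt-nd2 (0.55) and Mt-co3 (0.46) in ISch against IS and for Mt-atp8 (-0.54) in FIDch against IS.

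Of 47 genes for assembly factors and cytochrome c, 45 or 46 were tested in each of the 8 comparisons of diet groups and 1 was called, Pet100, a factor for complex IV, at -0.34 in female ISch against IS (SE 0.066, edgeR with Benjamini-Hochberg adjusted p = 0.0239). The difference between batches was called for Tmem126b, a factor for complex I, at 0.43 in FIDch against IS (SE 0.096, edgeR with Benjamini-Hochberg adjusted p = 0.0218). Pet100 and Tmem126b were the 2 calls in 592 tests of these genes over the 13 comparisons (0.338%), beside 0.791% of all genes. Of 16 genes of the citric acid cycle and of pyruvate dehydrogenase, 2 were called, both in female ISch against IS, where 2.54% of all genes were called, and both lower. They were Dlat, of the pyruvate dehydrogenase complex, at -0.22 (SE 0.043, edgeR with Benjamini-Hochberg adjusted p = 0.0271) and Idh3b, of the NAD-linked isocitrate dehydrogenase, at -0.17 (SE 0.038, edgeR with Benjamini-Hochberg adjusted p = 0.0429). None of the 12 regulators of mitochondrial biogenesis, such as Ppargc1a and Nrf1, had an adjusted p under 0.05 in any of the 13 comparisons by edgeR (Benjamini-Hochberg), with 24 instances in 156 tests at an unadjusted p under 0.05 (15.4%, all genes pooled 12.7%). DESeq2 gave 20 (12.8%, all genes 11.3%) and, by adjusted p, 1 (0.641%, all genes 1.84%). Ribosomal protein genes, another large set, had 11 called of 67 tested in male FIDch against FID, beside the 1.28% of all genes given above. Their median was 0.12, beside the 0.07 of the subunits. The 11 were all higher, from 0.34 to 1.02 on the log2 scale, among them Rplp1 (0.71), Rpl37a (0.43), Rpl41 (0.45) and Rps21 (0.48). Over the 13 comparisons there were 30 calls in 938 tests of this list (3.2%), beside 0.791% of all genes by edgeR's adjusted p (Benjamini-Hochberg). In males the other calls were Rpl17 at -1.03 in ISch, and Rps9 at -3.41 and Rpl12 at 0.53 in FIDch, each against IS. In females, against IS, they were the 2 entries of Rps27a at 1.78 and -0.47 in FID, Rpl12 (0.53), Rps10 (0.47) and Rpl30 (2.5) in ISch, and Rpl30 at 3 in FIDch. FIDch against FID females gave the same entries of Rps27a at -1.35 and 0.51, and Rpl17 at 0.35. Differences between batches were called for Rpl17 (1.45), Rpl30 (2.87) and Rpl21 (0.42) in ISch and for Rpl30 (3.39), Rpl17 (1.26), Rpl21 (0.48) and Rpl36a (1.25) in FIDch.

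Some cell type markers also differed between the diet groups. Astrocyte markers had 28 instances in 78 tests at an unadjusted p under 0.05 (35.9%, all genes pooled 12.7%), and 4 by edgeR's adjusted p (Benjamini-Hochberg; 5.13%, all genes pooled 0.791%). These were Aldh1l1 at 0.36 in female ISch against IS and 0.36 in female FIDch against FID, where Aqp4 was at 0.30, and the difference between batches of Aldh1l1 in ISch against IS (0.58). The mean sum of the astrocyte list was also higher in both of these female comparisons, with overlap between libraries. Without iron deficiency it was 4054 ± 84.6 CPM, and 4237 ± 220 with choline (SD, n = 4 each). After iron deficiency it was 3841 ± 150 CPM, and 4087 ± 92.4 with choline (SD, n = 4 each). Prox1, a marker of the dentate gyrus, was called at 0.39 in both of these female comparisons, 2 of 71 tests of the hippocampal field markers (2.82%). All field markers together summed to 919 ± 138 CPM in female IS and 999 ± 134 in ISch (SD, n = 4 each). In FIDch their mean was the lower one, at 847 ± 149 CPM against 895 ± 26.7 in FID (SD, n = 4 each). Female FIDch against FID also had Slc32a1, of inhibitory neurons, at -0.25 and Penk, a striatum marker, at 0.37. Each was the 1 call in 78 tests of its list (1.28%), and the sums of these lists did not follow them. The inhibitory neuron markers summed to 829 ± 32.6 CPM in female FID and 853 ± 59.3 in FIDch (SD, n = 4 each). The striatum markers summed to 49.2 ± 2.08 and 49.8 ± 3.44 CPM in the same order (SD, n = 4 each). Microglia markers had 0 calls in 78 tests by edgeR and 4 by DESeq2 (adjusted p, Benjamini-Hochberg). Their sums were nevertheless lower with choline in females, without overlap between libraries. Without iron deficiency the mean was 218 ± 4.74 CPM, and 199 ± 11.9 with choline (SD, n = 4 each). After iron deficiency it was 216 ± 9.91 CPM, and 192 ± 3.37 with choline (SD, n = 4 each). The part of cell composition in the subunit changes was not tested.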

How the data were processed

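Hippocampal RNA of 32 rats was sequenced. Per the labels, the authors trimmed the reads (Trimmomatic), aligned them to Rnor_6.0 with HISAT2 and counted them with featureCounts; the deposited values are raw read counts in 1 table per batch, with no normalization. How reads that fit several genes were counted is not stated. The files were used as they are.

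Subunit genes were found by symbol. The members and lists were chosen with earlier results of these data known. Counts were tested in R 4.3.3 with edgeR 4.0.16 (TMM factors, filterByExpr, quasi-likelihood F test), fitted on all genes for each pair of groups within a sex, with Benjamini-Hochberg adjustment over all genes tested. The interaction used the 16 libraries of a sex, and the difference between batches all 32. Log2 CPM used a prior count of 2. The scripts were tested on simulated data.

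Named were subunits with an adjusted p under 0.05 in any comparison, and the 3 with the smallest p at the criterion in each comparison of diet groups. Also named were iron-sulfur carriers of complexes I to III, heme carriers of complex II only, tissue isoforms, and all entries that repeat a symbol. Ndufa5, Cox7a2l, Ndufs7, Ndufa8, Ndufb6 and Uqcrc2 in females were named after their values were seen, as were the few genes listed to complete a count. For related lists and markers, genes with an adjusted p under 0.05 were named, up to 5 per list and comparison. Alternatives were RLE size factors, DESeq2 1.42.0, no filter beyond 1 count, the 4 groups of a sex in 1 fit, the replicate number as a block, each library left out, ISch replicates 1 and 2 left out, and, after seeing the data, repeated entries added together. The deposited labels of male ISch replicates 1 and 2 begin alike, and what this means is not stated. The study's methods state that each litter gave 1 male to an experiment. Figures used matplotlib 3.10.9.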

Additional observations from a re-analysis of the deposited data

Results flagged for a closer look

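A library far from the other 3 of its group was looked for in 16 measures, 128 groups of 4 in all, and 9 were found; chance alone singles out about 1 in 20 groups. In males these were Cox6b1 (ENSRNOG00000034161) at 39 CPM in FIDch replicate 4, below 48.5 to 49.2 in the other rats of its group, and Atp5mg at 119 CPM in FIDch replicate 2, below 129 to 130. In females the values were Atp5me at 64.4 CPM in IS replicate 4, the median subunit level of -0.07 in ISch replicate 3, and Ndufv3 at 0.147 CPM in ISch replicate 1 (ENSRNOG00000027593) and at 58.5 CPM in FID replicate 3 (ENSRNOG00000001182). The female FIDch group had 3: Ndufb7 at 65.8 CPM and Atp5f1e at 93.2 CPM, both in replicate 4, the library with the highest subunit level of the females, and Ndufa12 at 15 CPM in replicate 1.

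A difference between the sexes, which cannot be told apart from the sequencing batches, was found by edgeR's test of the difference itself for Cox6b1 (ENSRNOG00000034161). The female change less the male change was -0.61 on the log2 scale for ISch against IS and -0.52 for FIDch against IS. With both entries of the symbol added together neither was called, as reported above.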

How the results depend on the processing

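Over 54 results, the alternatives for named subunits kept direction and their side of the study's criterion (of the adjusted p for differences between batches) in 293 values and left it in 36. Read by adjusted p alone (edgeR or DESeq2, Benjamini-Hochberg), the 8 called results stayed under 0.05 in 124 of 159 values and passed it in 35. Counts of subunits stayed within 1.5 times in 316, fell further or to 0 in 32, and grew further or from 0 in 31. For fits that left out a library no share of all genes is given. How far the calls over all genes moved with these counts is therefore not shown. Medians moved by less than the spread between rats in 265, of which 5 changed sign, each without 1 IS library, and 1 moved by more. The fits of FID against IS males at the study's criterion gave 0 to 19 subunits when 1 library was left out (3 with all) and 5 with the 4 groups in 1 fit. ISch against IS males gave 2 to 13 (5 with all), 1 without ISch replicates 1 and 2, and 3 with entries of 1 symbol added together, which was tried only after seeing the data. FIDch against IS males gave 4 to 11 (6 with all). In females the ranges were 0 to 1 for FID, 1 to 3 for ISch, 1 to 5 for FIDch against IS and 1 to 4 for FIDch against FID; ISch gave 2 without the filter and 2 with the 4 groups in 1 fit.

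By adjusted p (edgeR or DESeq2, Benjamini-Hochberg) the leave-one-out ranges were 0 to 1 for ISch and FIDch against IS males, 1 to 3 for FIDch against FID males, 0 to 3 for ISch against IS females, and 1 to 3 and 1 to 4 for the differences between batches in ISch and FIDch. DESeq2 gave 7 for FIDch against FID males, 1 for the male interaction, 2 for ISch against IS females, 1 for FIDch against FID females, and 2 for each of these differences between batches. Over all genes DESeq2 called 2.01%, 0.915%, 4.69% and 5.56% in these comparisons, and 2.52% and 2.63% for the 2 differences. With the 4 groups in 1 fit ISch against IS females gave 2 and FIDch against FID females 1. Added entries gave 0 for ISch and FIDch against IS males and for both differences, and the 16 libraries of the groups alone 0 for FIDch. ISch gave 0 without ISch replicates 1 and 2. The male interaction median ranged from 0.04 to 0.21.

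With the replicate number as a block, ISch and FIDch against IS males, FIDch against FID males and ISch against IS females each gave 0; in no comparison did all pairs of equal number resemble each other (correlation over 0.1), so the number is not taken as a pairing, and a block leaves fewer residual degrees of freedom. For the other changes the cause was not tested. Depth limits what is seen of rare isoforms, since a count of 0 allows 0.32 to 0.85 CPM in males and 0.11 to 0.16 CPM in females.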
